A study of Mus musculus with 41 samples.

Results

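The hippocampus of male SAMP8 mice aged 6 months was compared with that of male SAMR1 mice of the same age by total RNA sequencing. The comparison took the 3 libraries labelled SAMP8 and the 4 labelled SAMR1 in this region at 6 months, which are 7 of the 41 libraries of the series. SAMP8 is the senescence-prone strain and SAMR1 its senescence-resistant relative. Both are inbred lines that carry no engineered allele, and no drug was under study in the groups compared. The study anesthetized its mice with isoflurane for imaging and with ketamine and medetomidine before perfusion. Each library came from the hippocampus dissected from one hemisphere of a mouse perfused with PBS, after the behavioral tests and the magnetic resonance imaging of the study, and each was from a different mouse by label. The SAMP8 libraries are numbered 1 to 3 (mice 21, 35 and 36) and the SAMR1 libraries 1 to 4 (mice 1, 17, 2 and 4), and values are given in that order. The question was which transcripts differ between the strains at the middle of the 3 ages studied.

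The hippocampus holds the circuit from dentate granule cells through CA3 to CA1 pyramidal neurons, and it is needed to form memories of places and events. Its excitatory neurons are accompanied by several classes of inhibitory interneurons, by astrocytes, microglia and myelinating oligodendrocytes, and it borders the choroid plexus of the ventricles. SAMP8 mice are used as a model of early decline in learning and memory, and their strain differences comprise inherited sequence differences as well as differences that come with age.

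The libraries were shallow and uneven. Total counts were 418346, 372166 and 217457 in SAMP8 and 1568216, 647326, 9914452 and 434515 in SAMR1, so that SAMR1 replicate 3 was 26.6 times as deep as the median SAMP8 library. Over the series, totals ran from 28861 to 37931897 with a median of 3082694. The strain label was checked with 12 genes higher and 4 lower in SAMP8 at 2.5 months, and the SAMP8-type genes made up 70.8%, 70.7% and 79.96% of the summed level of both sets in SAMP8 and 16.1%, 5.64%, 11.8% and 10.9% in SAMR1. The region label was checked with 11 genes higher in hippocampus and 5 higher in cortex at 2.5 months, several of which are genes of the choroid plexus (Ttr, Kl) or of the striatum (Penk, Rgs9). The hippocampus-type share was 74.4%, 56.2% and 76.1% in SAMP8 and 76.5%, 8.20%, 96.0% and 81.9% in SAMR1, against 73.2% to 91.6% in the hippocampus libraries of 2.5 months. SAMR1 replicate 2 therefore went against its region label, and the counts of called genes and the medians of gene lists that it moves are also given without it. The sums of the hippocampal markers (such as Prox1 and Wfs1) were 1246, 1263 and 1311 CPM (counts scaled to a common library size) in SAMP8 and 1684, 866, 1395 and 2050.0 CPM in SAMR1, with the lowest value in replicate 2. The sums of the striatal markers were 225, 352 and 289 CPM and 307, 3158, 343 and 431 CPM, and those of the choroid plexus 914, 650.1 and 484 CPM and 764, 346, 27530.4 and 2003 CPM. SAMR1 replicate 2 thus had the highest striatal sum and SAMR1 replicate 3 the highest choroid plexus sum, and in bulk tissue fewer cells of a type and less RNA per cell cannot be told apart.

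**Figure D1:**
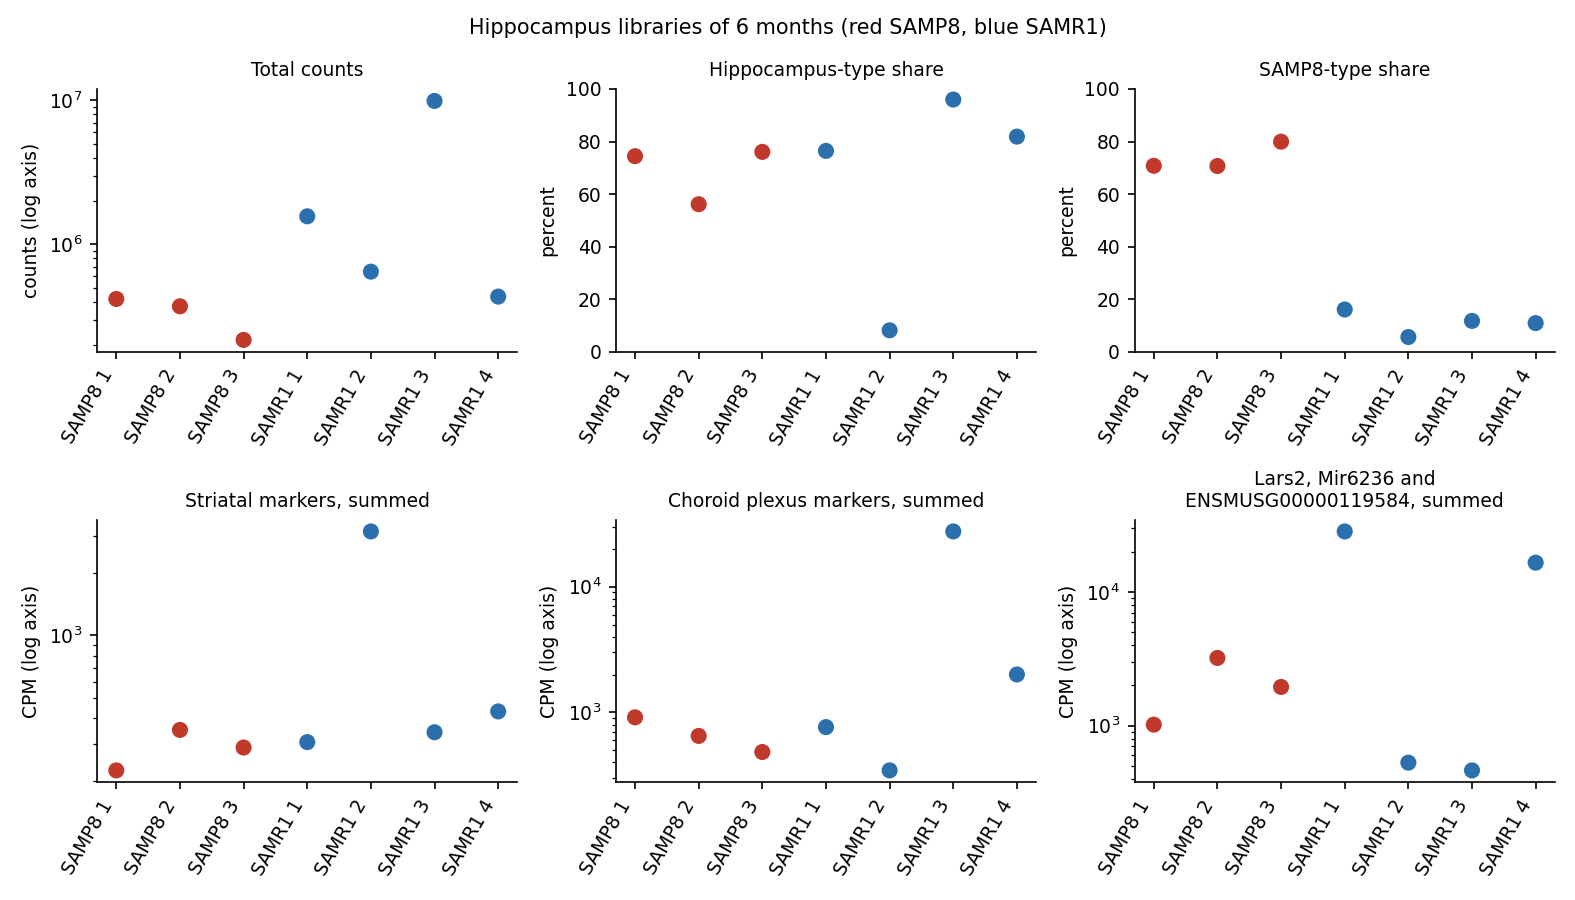
Total counts (log axis), hippocampus-type share, SAMP8-type share, and summed CPM (log axes) of the striatal markers, of the choroid plexus markers and of Lars2, Mir6236 and ENSMUSG00000119584, in each of the 3 SAMP8 and 4 SAMR1 libraries. SAMR1 replicate 2 has a hippocampus-type share of 8.20%, SAMR1 replicate 3 has 9914452 counts and a choroid plexus sum of 27530.4 CPM, and the SAMP8-type share separates the strains in all 7 libraries.

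No gene met both criteria that the study applied, an adjusted p of 0.1 or less together with a log2 fold change of 1 or more in size. Of 7826 genes tested with the edgeR quasi-likelihood test, 0 (0%) were called, the smallest adjusted p was 0.649, and 545 (6.96%) had an unadjusted p under 0.05, of which 258 (3.3% of the genes tested) were higher and 287 (3.67%) lower in SAMP8. A log2 fold change above 0 was found for 3870 genes (49.5%), and the median was -0.01. The ranges of the strains did not overlap for 343 genes with all SAMP8 libraries above all SAMR1 libraries (4.38%) and for 370 genes with all below (4.73%). Without SAMR1 replicate 2, 0 of 7449 genes were called and 369 had a p under 0.05. With each SAMR1 library thinned to the median SAMP8 depth of 372166 counts, 0 genes were called in each of 20 draws, and a median of 515 (492 to 542) had a p under 0.05. With both changes, 0 genes were called in each draw and a median of 337.5 (319 to 365) had a p under 0.05. DESeq2 called 10 genes, 4 higher and 6 lower, with 1004 at a p under 0.05, and limma with library weights called 0, with 471 at a p under 0.05. The DESeq2 calls included Gm13341, Plekha5, Rprl3, Bsn, D10Wsu102e, Gm1821, Myh9, Prrc2a and Rpl3-ps1, and DESeq2 called 0 when SAMR1 replicate 2 was left out. A fit of all 41 libraries in 12 groups, which tested 17039 genes, called 233, of which 183 were lower, and a fit of the 7 libraries that kept genes with low counts, which tested 25892, called 81, of which 72 were lower. Of the 55359 genes in the table, those not tested had too few counts to pass the filter.

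The genes with the smallest p among those lower in SAMP8 missed the thresholds and are given as values. Their adjusted p by edgeR, and that of the genes named for the other direction, was 0.649 or 0.679. Myh9, which encodes a heavy chain of non-muscle myosin, was at 92.8, 85.3 and 27.1 CPM in SAMP8 and 188, 243, 205 and 229 CPM in SAMR1. The ranges lay apart, with SAMP8 replicate 3 lowest, and the log2 fold change was -1.59 (SE 0.34) with adjusted p = 0.649 by edgeR. It was -1.53 without SAMR1 replicate 2 and -1.60 after thinning. Bsn, which encodes the presynaptic scaffold Bassoon, was at 244, 304 and 321 CPM against 486, 769.5, 402 and 886 CPM, with a log2 fold change of -1.13 (SE 0.29). Here too every SAMP8 library was below every SAMR1 library, and the SAMR1 values spread over a wider range than the SAMP8 values. Other genes of this direction named by the same rule were D10Wsu102e, Prrc2a, Tesk1, Rprd1b, Plekha5, Sned1, Rhbdd2 and Zfp777, with log2 fold changes from -2.87 in Sned1 to -1.13 in Prrc2a.

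Ppp1r1b, which encodes DARPP-32, the phosphatase inhibitor of dopamine-receptive striatal neurons, was lower in every SAMP8 library, and the size of the difference depended on one library. It was at 39.1, 53.3 and 27.1 CPM in SAMP8 and at 111, 794, 172 and 149 CPM in SAMR1, so the library with the highest striatal sum held by far the highest level. The log2 fold change was -2.89 (SE 0.65) over 7 libraries, with adjusted p = 0.649 by edgeR, and -1.82 without SAMR1 replicate 2, where the unadjusted p was smaller than with it and the adjusted p was 0.776. The other SAMR1 libraries (111, 172 and 149 CPM) still lay above all SAMP8 libraries. With the hippocampus-type share as a covariate, and with the GC and length offset together with the replicate block, Ppp1r1b was the 1 gene called. Penk, the enkephalin precursor of the striatum, was at 9.77, 42.6 and 36.2 CPM against 25.1, 607, 20.8 and 65.3 CPM, and its log2 fold change went from -2.61 to -0.25 without that library.

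Among genes with higher levels in SAMP8, several of the smallest p belonged to pseudogenes and to Rprl3, a copy of the RNA component of RNase P. The reads of these genes may be shared with near-identical sequences, so their values are uncertain. Gm6166 was at 29.3, 26.6 and 63.3 CPM in SAMP8 against 5.15, 0, 1.01 and 4.66 CPM in SAMR1, with a log2 fold change of 4.03 (SE 0.88), and the SAMP8 levels rest on 12, 10 and 14 counts. Most counts in these libraries were even, and if both reads of a pair were counted, the number of fragments would be lower than these counts, which was not tested. Rprl3 was at 103, 442 and 479 CPM against 61.8, 78.5, 139 and 97.95 CPM, and SAMP8 replicate 1 lay within the SAMR1 range. Gm1821, Gm13341, Rpl3-ps1, Gm7536 and Gm13340 had log2 fold changes from 1.11 to 2.19. Gm13341 and Gm13340 are unprocessed pseudogenes close together on chromosome 2 (22587291 to 22587962 and 22588103 to 22589647).

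The protein-coding genes of this direction were led by Vps35 and Vip. Vps35, the core subunit of the retromer that returns membrane proteins from endosomes, was at 274, 309 and 379.9 CPM against 199.7, 127, 183 and 139.9 CPM, a log2 fold change of 0.96 (SE 0.25). Vip, the neuropeptide of an interneuron class that inhibits other interneurons, was at 53.7, 63.9 and 36.2 CPM against 6.44, 15.1, 18.6 and 4.66 CPM. The SAMP8 libraries were all higher than the SAMR1 libraries, the log2 fold change was 2.09 (SE 0.55) with adjusted p = 0.679 by edgeR, and it was 2.17 without SAMR1 replicate 2 and 2.00 after thinning. These levels rest on few reads, 22, 24 and 8 counts of Vip in SAMP8. Pdcd10, a scaffold of vascular integrity, Mtpn (myotrophin) and Dnajb4, an Hsp40 co-chaperone, had log2 fold changes of 1.56, 1.06 and 1.16.

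**Figure D2:**
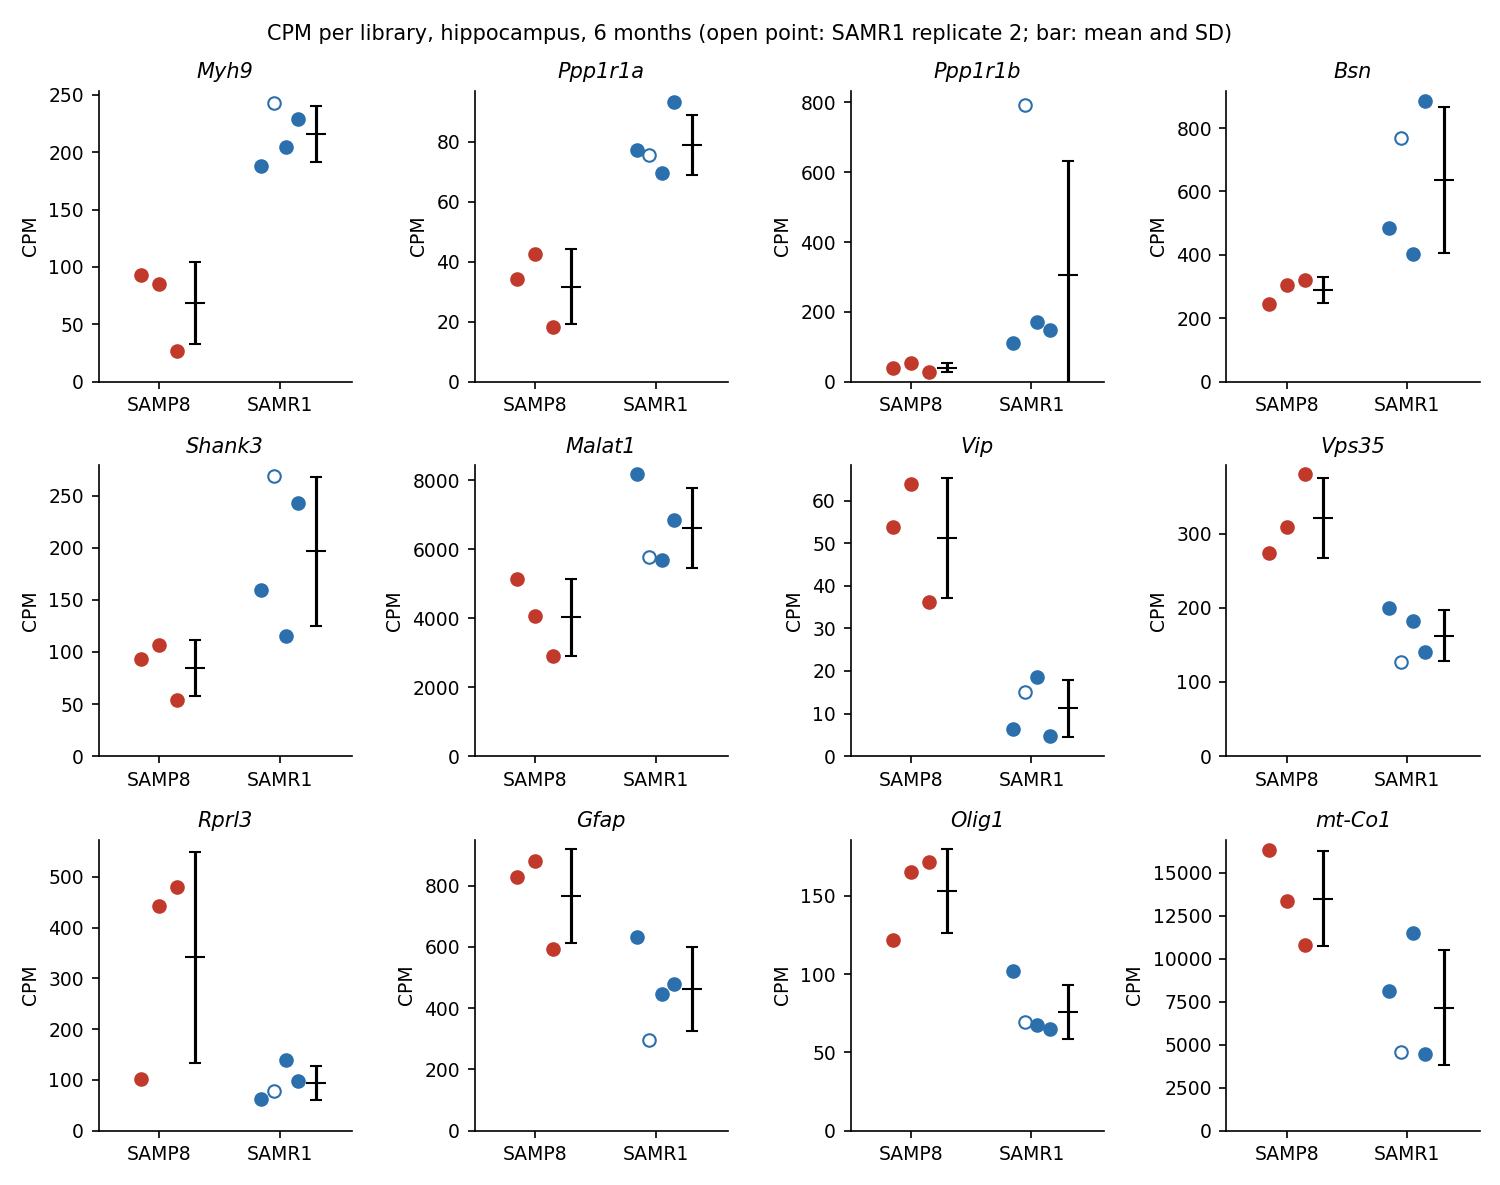
CPM in each SAMP8 and SAMR1 hippocampus library of 6 months for single genes, with points for libraries (SAMR1 replicate 2 open) and bars for mean and SD, cut at 0 for SAMR1 in Ppp1r1b. Myh9, Ppp1r1a, Ppp1r1b, Bsn, Shank3 and Malat1 have all SAMP8 points below all SAMR1 points, Vip, Vps35 and Olig1 have all above, Rprl3, Gfap and mt-Co1 overlap, and SAMR1 replicate 2 stands apart in Ppp1r1b at 794 CPM.

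The strain difference of young mice was then read in these libraries, which took no part in choosing it. In the 14 libraries of both regions at 2.5 months, 63 genes met both criteria, 41 with higher and 22 with lower levels in SAMP8. These 14 libraries came from 10 mice by label, 4 of which gave both regions, and they were fitted as separate samples, so that their p-values take no account of shared mice. In the 7 hippocampus libraries of that age, 1 for each mouse, 14 genes met both criteria, 12 of which are among the 63, and the 3 that could be tested at 6 months (Dctn3, Gm6166 and Ppp1r1a) had the same direction there. Only 10 of the 63 had enough counts to be tested at 6 months, and all 10 had the direction of 2.5 months, against 63.5% of the 7826 genes tested at both ages. Of these, 8 also had a p under 0.05 (background 5.78%) by edgeR, 0 were called, and 6 had ranges that did not overlap. Among the 7826 genes, 4.38% lay apart with SAMP8 above and 4.73% with SAMP8 below. Rprl3 was called by DESeq2 and, without SAMP8 replicate 1, by edgeR (adjusted p = 0.0811). Without SAMR1 replicate 2 the direction was kept in 9 of 10, Nnat being at 0.01, and after thinning in 10 of 10. A gene with low levels can be tested through the strain in which it is high, so these 10 do not stand for all 63. Over all 63 genes, 61 had at least 1 count, the mean of SAMP8 differed from that of SAMR1 in the direction of 2.5 months for 50 and in the other for 11, and the ranges lay apart in the direction of 2.5 months for 18 and in the opposite direction for 0. Over the 15190 genes tested at 2.5 months, 6.1% lay apart in their direction of that age. Of the 18 genes, only 6 had enough counts to be tested at 6 months.

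Dctn3, a subunit of the dynactin complex that carries cargo along microtubules (GRCm38 chromosome 4, 41714798 to 41723170), was at 87.9, 117 and 163 CPM in SAMP8 and 66.98, 54.3, 52.95 and 55.97 CPM in SAMR1. Every SAMP8 library was above every SAMR1 library, with a log2 fold change of 1.07 (SE 0.31) at 6 months and 1.61 (SE 0.18) at 2.5 months. Ppp1r1a, which encodes inhibitor 1 of protein phosphatase 1 and acts in synaptic plasticity (chromosome 15, 103530279 to 103538003), was at 34.2, 42.6 and 18.1 CPM against 77.3, 75.4, 69.7 and 93.3 CPM, with log2 fold changes of -1.25 (SE 0.38) and -1.06 (SE 0.19). Invs, the inversin gene of the primary cilium (chromosome 4, 48279760 to 48431954), was at 48.9, 47.96 and 36.2 CPM against 18.03, 24.1, 16.5 and 23.3 CPM, and Ranbp9, a scaffold protein (chromosome 13, 43402675 to 43481282), at 159, 149 and 109 CPM against 101, 75.4, 90.8 and 90.96 CPM. Both were above in all SAMP8 libraries, and their log2 fold changes of 1.17 (SE 0.45) and 0.64 (SE 0.27) stood beside 1.14 (SE 0.17) and 1.06 (SE 0.16) at 2.5 months. For Gm6166 (chromosome 9, 57483963 to 57484371) the value of 2.5 months was 4.51 (SE 0.30), for Rprl3 (chromosome 8, 3803069 to 3803358) 1.52 (SE 0.34). Nnat (neuronatin, an imprinted gene) and Fabp5, a fatty acid carrier, had smaller differences at 6 months, -0.34 and -0.28, than at 2.5 months, -1.23 (SE 0.27) and -1.01 (SE 0.23).

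The genes of 2.5 months lay together in places. Within windows of 10 Mb, 9 of the 62 with a known position fell on chromosome 4 between 41712033 and 48431954, where 76 genes were tested at that age, and all 9 were higher in SAMP8 (Rpp25l, Dctn3, Gm12407, Gm10601, Gm20878, Gm13306, Gm17167, Gm12394 and Invs). At 6 months 4 of the 9 had ranges that lay apart in that direction. Over the 15190 genes tested at 2.5 months, 6.1% lay apart at 6 months in their direction of 2.5 months. Among them, Gm13306 and Gm10601 were too low to be tested. Gm13306 had 6, 2 and 1 counts in SAMP8 and 2, 0, 1 and 0 in SAMR1. Gm10601 had 3, 4 and 2 counts in SAMP8 and 2, 0, 0 and 0 in SAMR1. On chromosome 2, between 175166255 and 178078476, there were 8 of 15 tested genes, 6 of them higher, and 0 lay apart at 6 months. Over all 15190 genes tested at 2.5 months, 0.415% were called. Each stretch was bounded by its own first and last called gene. Gm10601 and Gm12407 are unprocessed pseudogenes, whose reads may be shared with near-identical sequences. P3h2, a prolyl hydroxylase of collagens, was too low to be tested, with 2, 0 and 0 counts in SAMP8 and 22, 4, 221 and 4 counts in SAMR1. B230217O12Rik had 0 counts in each SAMP8 library and 20, 10, 81 and 2 in SAMR1, where the deepest library gave most of the counts.

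**Figure D3:**
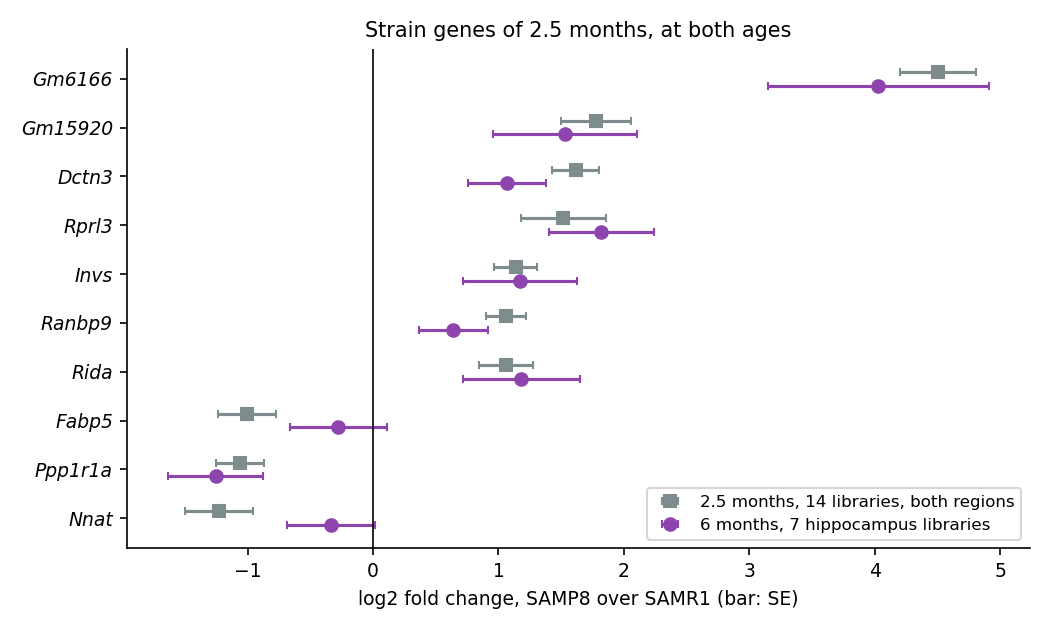
Log2 fold change of SAMP8 over SAMR1 with its SE for the 10 genes called at 2.5 months and tested at 6 months, at 2.5 months (squares, 14 libraries of both regions) and at 6 months (circles, 7 hippocampus libraries). All 10 points of 6 months are on the side of 2.5 months, and those of Nnat and Fabp5 are within about 1 SE of 0.

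The strain difference was also compared between ages within hippocampus. The interaction with 2.5 months gave 0 called genes of 15234 by edgeR, with 1194 at a p under 0.05 and 0 called by DESeq2 (1357 at a p under 0.05). The interaction with 9 months gave 3 called genes (0.0197%), of which Vip and Gm765 are described here, each with an adjusted p of 0.0802. In CPM over library totals, Vip was at 29.3 to 33.1 in SAMP8 and 16.1 to 28.8 in SAMR1 at 2.5 months, at 36.8 to 64.5 and 4.60 to 18.6 at 6 months, and at 12.6 to 22.9 and 26.8 to 45.9 at 9 months. SAMP8 was thus higher at the first 2 ages and lower at the last, and the strain difference of 6 months exceeded that of 9 months by 3.05 (SE 0.57) on the log2 scale. Gm765 had 10, 8 and 0 counts in SAMP8 and 0, 0, 2 and 0 in SAMR1 at 6 months, too few for a fold. SAMR1 has 2 hippocampus libraries at 9 months, and the calls depend on single libraries of 6 months: without SAMR1 replicate 1 or without SAMR1 replicate 4 there were 0, without SAMR1 replicate 3 there was 1 (Vip), and without the other libraries in turn there were 4 to 18. DESeq2 called 53.

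The 52 genes called in hippocampus at 9 months were read in the same way. Of the 35 tested at 6 months, 19 had the same direction, beside 56.3% of all genes, and without SAMR1 replicate 2 the count was 14 of 34. Gm6166, Dctn3, Atad1 and Invs had the same direction with a p under 0.05. Myh9, with the smallest p at 6 months, was at 178 and 192 CPM (medians of SAMP8 and SAMR1) at 2.5 months and at 186 and 178 CPM at 9 months. Its strain difference of 6 months minus that of 2.5 months was -1.34 with adjusted p = 0.438, and minus that of 9 months -1.75 with adjusted p = 0.191 by edgeR. Against cortex at 6 months, where 6 of the 8 mice gave both regions and their libraries were fitted as separate samples, 0 of 13351 genes had a called difference between regions by edgeR, with 782 at a p under 0.05, and DESeq2 called 4 (Rpl10a-ps1, Gm13341, C230004F18Rik and mt-Td). Of the SAMR1 cortex libraries of that age, one had a hippocampus-type share of 88.9% and another a SAMP8-type share of 87.6%, and leaving out both of these and SAMR1 hippocampus replicate 2 gave 3 calls (Gm28439, Gm13341 and Gm13340).

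**Figure D4:**
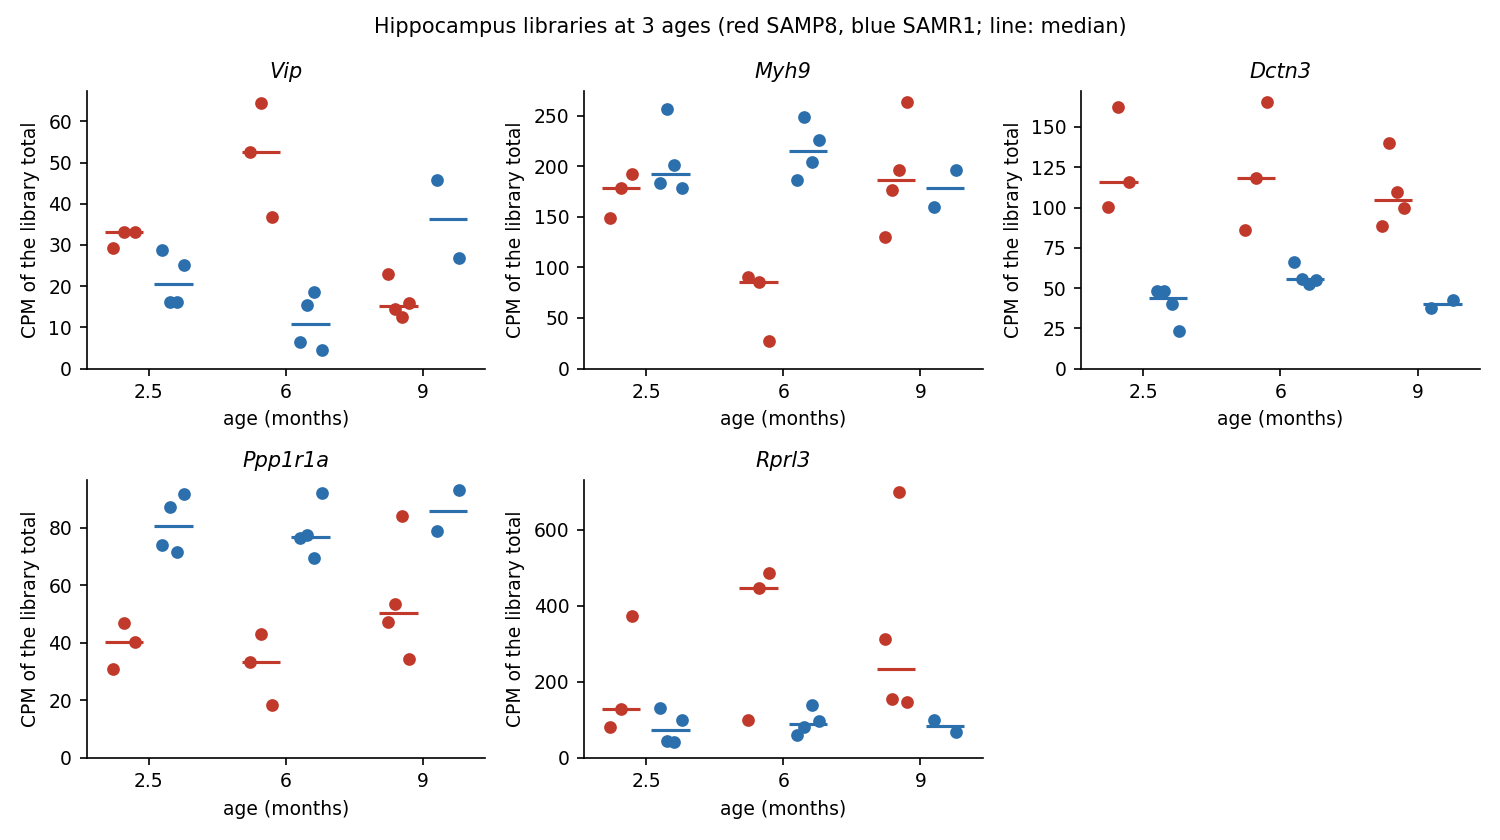
CPM over library totals for 5 genes in the hippocampus libraries at each age (2.5, 6 and 9 months), red for SAMP8 and blue for SAMR1, with points for libraries and lines for medians. Dctn3 is higher and Ppp1r1a has a lower median in SAMP8 at all 3 ages, Vip is higher in SAMP8 at 6 months and lower at 9 months, and Myh9 is apart at 6 months only.

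In the edgeR test of the 7 libraries, 0 of the 520 gene list members tested were called, and the lists are described by their counts. Of the other settings, DESeq2 and the test without SAMP8 replicate 1 called Rprl3, and the covariate and the offset with block called Ppp1r1b. The fit of all 41 libraries called 14 of 765 members (among them Vip, Shank3, Grik5, Tet3 and Ppp1r1a), beside 233 of all 17039 genes it tested. The fit without a filter called 26 of 805, beside 81 of all 25892. The 26 included choroid plexus and striatal genes such as Ttr, Clic6, Penk and Scn4b. The values in parentheses after a list median are the lowest and the highest with 1 library left out, and the library is named by its strain and number. Of the 17 oligodendrocyte and myelin genes tested, 16 had a log2 fold change above 0 (49.5% of all genes did), with a median of 0.48 (0.33 without SAMR1 2 and 1.01 without SAMR1 1) beside -0.01 over all genes. The summed levels were 11718, 11941 and 7697 CPM in SAMP8 and 13865, 3795, 6386 and 7148 CPM in SAMR1, so the highest of the 7 was SAMR1 replicate 1. Of the 17 genes, 1 had ranges apart with SAMP8 above (4.38% of all genes did). That gene was Olig1, a transcription factor of the lineage, which was at 122, 165 and 172 CPM against 101.8, 69.4, 67.2 and 65.3 CPM, without overlap and with a log2 fold change of 0.99 (SE 0.29). Opalin, a marker of mature oligodendrocytes, had a log2 fold change of 1.17. The 5 genes of oligodendrocyte precursors tested had a median of 0.02 (-0.07 without SAMR1 3 and 0.21 without SAMR1 4), and of 0.05 without SAMR1 replicate 2.

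Of 19 astrocyte genes, 16 were above 0 with a median of 0.20 (0.07 without SAMP8 2 and 0.37 without SAMR1 1), and 13 without SAMR1 replicate 2 with a median of 0.14. Ranges lay apart with SAMP8 above for 1 of the 19 (4.38% of all genes did) and with SAMP8 below for 2 (4.73%). Gfap, the intermediate filament of astrocytes whose protein the study stained, was at 828, 879 and 592 CPM in SAMP8 and 631, 297, 447 and 480.4 CPM in SAMR1. SAMP8 replicate 3 lay below SAMR1 replicate 1, and the log2 fold change was 0.73 (SE 0.26), with adjusted p = 0.679 by edgeR, and 0.57 without SAMR1 replicate 2. Aqp4, the water channel of astrocyte endfeet, had a log2 fold change of 0.76. Among genes of reactive astrocytes 4 of 12 were tested, and they diverged around a median of 0.56 (-0.45 without SAMP8 2 and 0.86 without SAMP8 3), with Serpina3n at 0.95 and the complement gene C4b at -1.29.

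Aif1, which encodes the microglial protein Iba1, was too low to be tested, at 4.89, 10.7 and 9.04 CPM in SAMP8 and 11.6, 6.04, 9.11 and 13.99 CPM in SAMR1, and these ranges overlapped. Of 11 microglial genes tested, 7 were above 0 with a median of 0.39 (0.15 without SAMP8 2 and 0.51 without SAMR1 1). Gpr34, a microglial receptor, was at 48.9, 63.9 and 45.2 CPM against 29.6, 0, 14.6 and 4.66 CPM, with all SAMP8 libraries higher. Genes of vessels (3 tested), meninges (2) and blood (2) were mostly below the count needed for a test, and the sign of each median depended on single libraries. The median was 0.08 (-0.21 without SAMP8 1 and 0.43 without SAMP8 3) for vessels, -0.39 (-0.59 without SAMP8 3 and 0.00547 without SAMR1 3) for meninges and 0.15 (-1.77 without SAMP8 2 and 1.18 without SAMP8 3) for blood. Those of interferon and antigen presentation (2 tested of 23) had a median of 0.13 (-0.20 without SAMP8 2 and 0.40 without SAMP8 1). Without SAMR1 replicate 2 the medians of vessels, blood and interferon genes were 0.35, 0.06 and 0.22.

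The median of 26 glutamatergic synapse genes was -0.14 (-0.21 without SAMP8 2 and -0.07 without SAMR1 4) with 9 above 0, and -0.07 without SAMR1 replicate 2. That of 31 long-term potentiation genes was -0.15 (-0.27 without SAMP8 1 and -0.04 without SAMP8 3) with 9 above 0. Shank3, a scaffold of the postsynaptic density, was at 92.8, 107 and 54.3 CPM in SAMP8 and 159, 269, 116 and 243 CPM in SAMR1. Its relative Shank1 was at 362, 282 and 289 CPM against 488, 481, 377 and 809 CPM. All SAMP8 libraries were below all SAMR1 libraries for both, with log2 fold changes of -1.16 (SE 0.35) and -0.78 (SE 0.27). Grik5, a kainate receptor subunit, had a log2 fold change of -1.24 (SE 0.39), and Ppp1cb, a catalytic subunit of protein phosphatase 1, of 0.61 (SE 0.24). An offset for GC content and transcript length, which moved the median of all genes to 0.07, moved these list medians to 0.02 and -0.02 and Shank1 to 0.0217, so the direction of the first list and of Shank1 depends on it and the second comes to near 0.

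The 22 genes of GABAergic neurons and synapses had a median of 0.28 (0.10 without SAMP8 2 and 0.35 without SAMP8 1) with 17 above 0. Slc32a1, the vesicular GABA transporter, was at 19.5, 42.6 and 36.2 CPM against 41.2, 278, 32.8 and 69.97 CPM, and its log2 fold change went from -1.66 to -0.50 without the library of the highest striatal sum. Immediate early genes (13 tested) had a median of -0.21 (-0.32 without SAMP8 1 and -0.10 without SAMP8 2), and 0.03 with the GC offset or -0.14 without SAMR1 replicate 2. Of the 13, 4 were above 0. Bdnf, the activity-dependent neurotrophin, was at 63.5, 37.3 and 54.3 CPM against 24.5, 9.05, 29.97 and 37.3 CPM. Junb, Nr4a3 and Nr4a2, named by the same rule, had log2 fold changes of -1.14, -0.80 and 0.62.

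Region markers varied between libraries, and hippocampal and cortical markers also leaned in opposite directions between the strains. The median of 11 hippocampal markers was -0.18 (-0.64 without SAMP8 3 and -0.03 without SAMP8 1) with 2 above 0, and -0.40 with 0 above 0 once SAMR1 replicate 2 was left out. That of 15 cortical markers was 0.28 (0.15 without SAMR1 1 and 0.41 without SAMP8 2) with 12 above 0. Without SAMR1 replicate 2 it was 0.19, with 11 of 14 above 0. The cortical sums were 1773, 1481 and 1696 CPM in SAMP8 and 1326, 1696, 1258 and 1299 CPM in SAMR1. Whether the dissected tissue differed between the strains was not tested. The median of 7 striatal markers was -1.46 (-1.92 without SAMR1 3 and 0.22 without SAMR1 2). Thalamic markers (5 tested) had a median of -0.30 (-0.72 without SAMP8 2 and 0.16 without SAMR1 2), and 6 genes of granule cell progenitors one of -0.05 (-0.18 without SAMR1 3 and 0.11 without SAMR1 2). The 3 choroid plexus genes tested had a median of -3.55 (-4.14 without SAMR1 4 and -0.55 without SAMR1 3). Ttr, the thyroid hormone carrier made by that tissue, was at 322, 125 and 239.7 CPM in SAMP8 and 187, 90.5, 16963 and 1047 CPM in SAMR1, so that a single library set its log2 fold change of -4.32. The 4 genes of ependyma and motile cilia had a median of -0.49 (-0.61 without SAMR1 2 and -0.12 without SAMP8 1).

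The 11 genes of mitochondrially encoded proteins tested had a median of 0.47 (0.29 without SAMP8 1 and 0.58 without SAMP8 3) with 9 above 0, but of -0.02 with the GC and length offset. Their summed levels were 57873, 45309 and 37562 CPM in SAMP8 and 29157, 27840.0, 39154 and 23933 CPM in SAMR1, with SAMP8 replicate 3 below SAMR1 replicate 3. mt-Nd2, a subunit of complex I, was at 6639, 5345 and 4988 CPM against 3202, 3565, 4259 and 2731 CPM, without overlap. The median of 77 nuclear genes of the respiratory chain was 0.16 (0.04 without SAMP8 3 and 0.38 without SAMP8 1) and that of 78 genes of cytosolic ribosomal proteins 0.29 (0.00948 without SAMP8 2 and 0.49 without SAMP8 1). They came to 0.02 and 0.11 with the offset. Within the respiratory chain, Cox6a1 of complex IV was at 235, 442 and 289 CPM against 175, 163, 209.6 and 135 CPM, while Ndufa2 of complex I had a log2 fold change of -1.58 (SE 0.54). Genes of the proteasome and chaperones (24 tested) had a median of 0.22 (0.09 without SAMR1 2 and 0.32 without SAMR1 3) and those of antioxidant defense (21 tested) of 0.20 (0.0035 without SAMP8 2 and 0.41 without SAMP8 1). Without SAMR1 replicate 2 the medians of ribosomal proteins, proteasome and chaperones, and antioxidant defense were 0.16, 0.09 and 0.13.

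Of 11 long noncoding RNAs of the nucleus, 2 had a log2 fold change above 0, with a median of -0.40 (-0.69 without SAMP8 1 and -0.32 without SAMR1 2), or -0.26 with the offset. Malat1, a resident of nuclear speckles, was at 5132, 4079 and 2899 CPM against 8184, 5768, 5701 and 6849.8 CPM, and Neat1, the scaffold of paraspeckles, at 70.8, 37.3 and 45.2 CPM against 129, 81.5, 85.96 and 88.6 CPM. All SAMP8 libraries were below all SAMR1 libraries for both, with log2 fold changes of -0.71 (SE 0.27) and -0.90 (SE 0.35). The 54 modifiers of histones and DNA had a median of -0.11 (-0.18 without SAMP8 1 and -0.05 without SAMP8 3), and 0.12 with the offset. Tet3, which oxidizes methylated cytosine, was at 34.2, 31.97 and 36.2 CPM against 71.5, 89.02, 54.98 and 79.3 CPM, a log2 fold change of -1.10 (SE 0.37). Setd1b, Kmt2d and Hdac5 had log2 fold changes of -1.74, -0.89 and -0.67. They and Tet3 were the members with the smallest p, and 22 of the 54 were above 0 (49.5% of all genes were). The 8 replication-dependent histone genes tested had a median of 0.26 (-0.12 without SAMP8 3 and 0.80 without SAMP8 1).

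Pathways often discussed in this model gave few tested genes. Of 28 genes of steroid hormone synthesis 6 were tested, with a median of 0.13 (0.00453 without SAMR1 4 and 0.20 without SAMR1 1), and 0.04 without SAMR1 replicate 2. Of 15 hedgehog signaling genes 5 were tested, with a median of -0.35 (-0.35 without SAMR1 4 and -0.02 without SAMR1 3) that came to -0.02 after thinning. Of 17 amyloid and tau genes, 5 were above 0 with a median of -0.21 (-0.35 without SAMP8 1 and -0.04 without SAMP8 2). Sorl1, a sorting receptor of the amyloid precursor protein, was at 366, 357 and 253 CPM against 414, 438, 419 and 690.3 CPM, without overlap. App, the precursor itself, was at 2609, 1324 and 1027 CPM against 2143, 2325, 1899 and 2211 CPM. Apoe, the lipid carrier of astrocytes, was at 2252, 2113 and 2365 CPM against 2773, 2725, 2707 and 2537 CPM, with all SAMP8 libraries below all SAMR1 libraries. Senescence genes (5 tested of 18) had a median of 0.14 (-0.37 without SAMP8 2 and 0.23 without SAMR1 3), which was also below 0 without each of the other SAMP8 libraries in turn, without SAMR1 replicate 4 and with the replicate block (-0.08). Of the small structured RNAs, Rprl3 was the 1 gene of 7 tested. Tent2, a cytoplasmic poly(A) polymerase, was at 39.1, 37.3 and 36.2 CPM against 6.44, 15.1, 16.3 and 4.66 CPM, without overlap, and the transcription factor gene Zfhx3 had a value of -1.64 on the log2 scale. Gli2, Kdm6b and Rpph1 were below the count needed for a test.

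**Figure D5:**
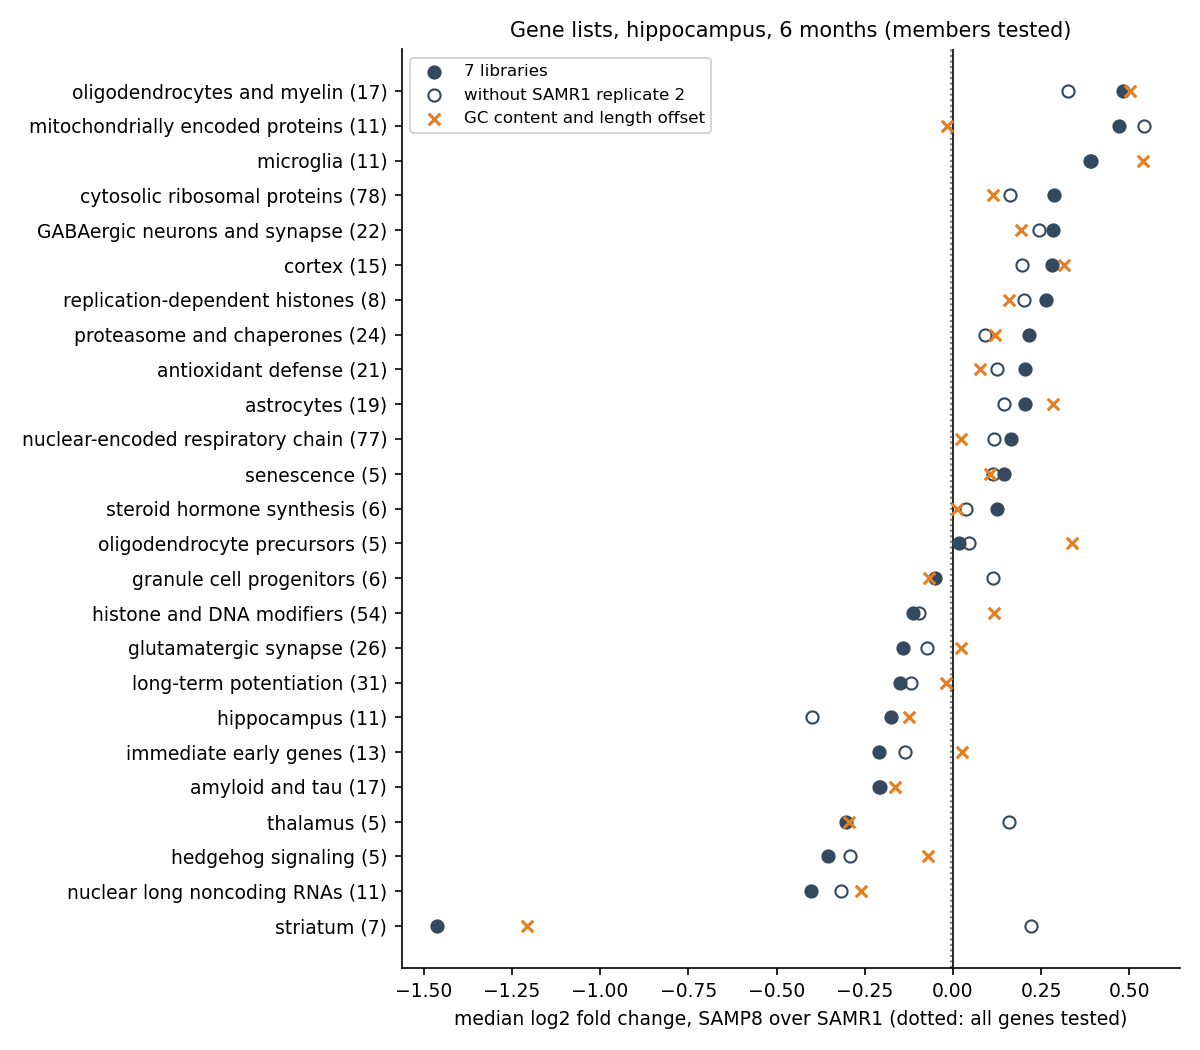
Median log2 fold change of SAMP8 over SAMR1 over the tested members of each gene list with 5 or more tested, with 7 libraries (filled), without SAMR1 replicate 2 (open) and with the GC and length offset (crosses), and the number tested in parentheses. The myelin median lies above 0 in all 3 settings, the striatal median moves from -1.46 to 0.22 without SAMR1 replicate 2, and the mitochondrially encoded median moves to -0.02 with the offset.

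The 258 genes with a p under 0.05 and higher levels in SAMP8 had a median length of the longest transcript of 3270 bases and a median GC content of 44.9%, and 22 of them (8.53%) were pseudogenes. The 287 with lower levels had medians of 4981 bases and 54.1% and held 0 pseudogenes. Over all genes tested the medians were 4034.5 bases and 49.0%, with 57 pseudogenes (0.728%). The summed level of Lars2, Mir6236 and ENSMUSG00000119584 was 1016, 3205 and 1945 CPM in SAMP8 and 28326, 528, 462 and 16540.2 CPM in SAMR1, so replicates 1 and 4 were the highest of the 7. Their part in the other values was not tested. Xist had 0 counts in all 7 libraries, and Ddx3y of the Y chromosome was at 137, 117 and 145 CPM in SAMP8 and 43.2, 39.2, 98.6 and 83.96 CPM in SAMR1, with the SAMP8 libraries above all SAMR1 libraries.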

How the data were processed

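The authors extracted RNA with TRIzol, prepared CORALL total RNA libraries after RiboCop depletion of ribosomal RNA, and sequenced them on a NextSeq 500. They took molecular identifiers with UMI tools, trimmed with cutadapt, aligned with STAR (GRCm38, with Gencode M29 named in the methods; versions not given in the sources used here), and counted reads per gene on the forward strand with featureCounts. The deposited values are whole-number counts without duplicates. From 64.3% to 93.8% of the non-zero counts in a library were even, so counts divided by 2 were also fitted. Whether both reads of a pair were counted was not tested, and if they were, printed counts exceed the number of fragments.

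Groups came from the sample titles. Counts of 55359 identifiers were filtered with filterByExpr, scaled by TMM and fitted in R 4.3.3 with edgeR 4.0.16 (quasi-likelihood, 7 libraries), and p-values were adjusted by Benjamini-Hochberg over all genes tested. A gene was called where its adjusted p was 0.1 or less and its log2 fold change 1 or more in size, as in the study. CPM uses TMM-scaled totals except where the library total is named. DESeq2 1.42.0 and limma 3.58.1 (voom with library weights) were alternatives. Interactions used the 20 hippocampus libraries or the 14 libraries of 6 months. SAMR1 libraries were thinned in 20 seeded draws. Coordinates came from GENCODE M21 (52083 identifiers matched). Scripts were tested on simulated counts.

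Libraries of a strain differed beyond sampling noise (lowest chi-square per degree of freedom 3.99), so none was counted as a copy. Whether mice were independent of cage or litter is not stated, and p-values measure only the spread between these libraries. With 3 against 4 libraries an exact permutation test cannot go below 0.0571, so none was used.

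The named genes are the 12 of each direction with the largest fold among called genes, filled up by the smallest p (at least 20 CPM in one strain), up to 4 of each of 33 gene lists by smallest p, 13 genes known from earlier results, up to 10 genes called at 2.5 months, and Xist and Ddx3y. Gm765, Atad1, B230217O12Rik and the genes that alternatives called were named after their values were seen. The comparison, tests and lists were chosen with earlier results of these data known. Alternatives were RLE scaling, no filter, a mean of at least 20 counts, each library left out, all 41 libraries in 12 groups, the hippocampus-type share as covariate, replicate number as a block, and an offset for GC content and length (loess, span 0.3). Raw reads were not analysed here. Some genes picked by this rule are left out of the text.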

Additional observations from a re-analysis of the deposited data

Results flagged for a closer look

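Values of 104 groups of 4 SAMR1 libraries were examined for 1 library far from the other 3 by Dixon's test, and 14 were found. The nominal rate of that test is about 1 in 20 for independent values. The groups held sums of lists together with members of the same lists, so the number found cannot be set against that rate. SAMR1 replicate 2 stood apart in the summed cortical markers (1696 CPM), the summed striatal markers (3158 CPM), Ppp1r1b (794 CPM), Penk (607 CPM) and Slc32a1 (278 CPM), each the highest of the SAMR1 libraries. Its cortical sum was within the range of the SAMP8 libraries, which were at 1773, 1481 and 1696 CPM. SAMR1 replicate 3 stood apart in total counts (9914452), the summed choroid plexus markers (27530.4 CPM), Ttr (16963 CPM) and Enpp2 (7618 CPM), all highest, and in the summed amyloid and tau genes (8112 CPM). SAMR1 replicate 1 stood apart in Neat1 (129 CPM) and Olig1 (101.8 CPM), and SAMR1 replicate 4 in Gm1821 (9.33 CPM) and Sorl1 (690.3 CPM). The causes of these values were not tested.

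The strain difference at 6 months differed from that at 9 months by 3.05 for Vip (log2, edgeR interaction, adjusted p = 0.0802). For Gm765 the fitted difference was 11.38, which depends on the prior count because most libraries hold 0 counts, and it gives no bound.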

How the results depend on the processing

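The strain difference in hippocampus had 0 called genes by edgeR. The count stayed 0 with RLE scaling, a mean of at least 20 counts, limma, a false discovery rate of at most 0.05, thinning, the GC and length offset, and the replicate numbers as a block (0 called, 276 at p under 0.05). It was 10 by DESeq2, 81 of 25892 tested without a filter, 233 (50 higher, 183 lower) of 17039 tested with all 41 libraries, 1 with the hippocampus-type share and 1 with the offset and block (both Ppp1r1b), and 0 to 1 with single libraries left out (Rprl3 without SAMP8 replicate 1). Of the alternatives chosen after seeing the data, counts divided by 2 gave 0, leaving out SAMR1 replicates 2 and 3 gave 3 (Mir6236, Lars2 and ENSMUSG00000119584, lower), and DESeq2 without SAMR1 replicate 2 gave 0. Same-numbered libraries did not deviate together (correlations 0.05, -0.07 and -0.03), so the numbers were not treated as pairs. The interaction with 2.5 months gave 0 to 4 calls with single libraries left out (Nop58, Slc35b4, Usf2 and Cblb without SAMP8 replicate 1), that with 9 months gave 0 to 18, and 53 by DESeq2 against 3, and that with cortex gave 0 to 1 calls, 4 by DESeq2 and 3 without the 3 SAMR1 libraries in doubt.

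Among named genes 1392 values kept direction and side of the threshold, 55 passed it and 7 changed sign. The sign changes were Shank1 (0.0217 with the offset, 0.14 with offset and block), mt-Nd6 (-0.13 with offset and block) and Nnat (-0.59 to 0.00586 with single libraries left out, the highest without SAMR1 replicate 2, 0.25 without replicates 2 and 3, 0.00481 by DESeq2 without replicate 2, 0.00718 thinned without it). Of the list medians, 663 moved by less than the spread and 60 by more. Of the 55359 genes, 7826 had enough counts to be tested.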
